A study of Mus musculus with 6 samples.

Results

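The serum amyloid A family comprised 4 genes of the 19764 in the deposited table, Saa1, Saa2, Saa3 and Saa4. They were taken by symbol, and all 4 had enough reads to be tested. Transcript levels came from primary hepatocytes of Bl6/N mice in 6 polyA RNA libraries, 3 Control and 3 TNF. In both groups cells were plated with corticosterone, starved for 16 h at 5 mM glucose and then treated for 8 h with 1 µM corticosterone, which activates the glucocorticoid receptor, and 10 µM WY-14643, which activates the nuclear receptor PPARα. The TNF group also received 1 ng/ml TNF and the Control group vehicle. The comparison asks what TNF does to hepatocytes in this starvation-like state. Corticosterone and WY-14643 were present in every library, so levels without either ligand were not measured. Separate animals or cultures are not named for the replicates, so p-values measure only the spread between these libraries, which may be technical.

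Serum amyloid A proteins are small apolipoproteins that the liver secretes during the acute phase of inflammation and that circulate on high density lipoprotein (HDL). In mice Saa1 and Saa2 encode the main inducible plasma forms, Saa3 is also made outside the liver, among others by macrophages and adipocytes, and Saa4 is known as the constitutive member. Interleukin-1, interleukin-6 and TNF are classical inducers. They act through NF-κB, C/EBP and STAT factors, and glucocorticoids are known to strengthen the response of inducible members in hepatic cells.

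The genes lie in a cluster of 42317 bases on chromosome 7 (mm10, 46711998 to 46754314). Saa3 (NM_011315, 46711998 to 46715676), Saa4 (NM_011316, 46727999 to 46732543) and Saa1 (NM_009117, 46740499 to 46742980) are on the minus strand, and Saa2 (NM_011314, 46751833 to 46754314) is on the plus strand. Saa1 and Saa2 therefore point away from each other across 8852 bases. Reads were counted over the whole span of each gene, introns included. RefSeq lists the name of each of Saa1 and Saa2 as an older synonym of the other, so the accessions above fix which is which.

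The 250 bases before the RefSeq transcription start of each gene (GRCm38.p6, which is mm10) are shown so that members can be compared at the motifs of these factors. Capitals mark matches to TTGCNNAA (C/EBP) or to GGAA and CC separated by 4 bases of any kind (NF-κB), searched on both strands. Matches to one motif did not overlap those to the other. The motif forms were chosen with the sequences known. For Saa4 the RefSeq start lies upstream of the gene end given in the deposited table, so its window does not adjoin the span above as the other 3 windows do, and its distances count from the RefSeq start.
Saa1, chr7:46742981-46743230, minus strand: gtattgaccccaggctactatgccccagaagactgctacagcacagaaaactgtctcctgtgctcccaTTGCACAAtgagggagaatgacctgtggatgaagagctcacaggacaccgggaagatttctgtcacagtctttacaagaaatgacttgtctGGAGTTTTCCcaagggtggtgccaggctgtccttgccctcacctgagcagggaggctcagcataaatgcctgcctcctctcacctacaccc
Saa2, chr7:46751583-46751832, plus strand: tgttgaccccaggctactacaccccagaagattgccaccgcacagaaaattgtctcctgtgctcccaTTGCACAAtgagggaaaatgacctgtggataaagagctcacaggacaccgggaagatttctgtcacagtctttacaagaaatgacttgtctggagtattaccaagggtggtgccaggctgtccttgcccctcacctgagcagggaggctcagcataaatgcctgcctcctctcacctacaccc
Saa3, chr7:46715677-46715926, minus strand: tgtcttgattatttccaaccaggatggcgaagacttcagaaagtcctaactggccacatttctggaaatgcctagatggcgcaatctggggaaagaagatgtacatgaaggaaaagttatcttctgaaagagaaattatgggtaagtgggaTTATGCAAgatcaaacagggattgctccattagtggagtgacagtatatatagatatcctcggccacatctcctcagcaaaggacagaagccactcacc
Saa4, chr7:46732604-46732853, minus strand: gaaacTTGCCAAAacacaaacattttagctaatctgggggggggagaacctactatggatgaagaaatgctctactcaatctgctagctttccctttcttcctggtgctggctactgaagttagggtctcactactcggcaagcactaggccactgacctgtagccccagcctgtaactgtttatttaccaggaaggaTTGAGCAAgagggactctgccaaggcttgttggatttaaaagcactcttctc

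A C/EBP match was present upstream of all 4 members, at 182 and 183 bases before the start in Saa1 and Saa2, at 99 in Saa3 and at 245 and 52 in Saa4. Among 32851 RefSeq promoters, 9.56% held this motif in the same window. The NF-κB match was present in Saa1, 91 bases before the start on the opposite strand, and in 15.2% of all promoters. Saa1 and Saa2 shared 95.6% of 249 aligned upstream bases and differed at 11. Of those differences, T165A and C168A (Saa1 base, position from 1 at the 5′ end of the Saa1 stretch shown, Saa2 base) fell inside the NF-κB match, so these letters were not found in Saa2. Saa3 and Saa4 shared 49.4 to 56.1% with the other members upstream. The forms TTCNNNGAA (STAT) and AGAACA and TGTTCT separated by 3 bases (glucocorticoid receptor) were found in none of the 4 windows, and in 7.02% and 0.00913% of all promoters. A match here is a run of letters and not a measured binding site.

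Saa1 and Saa2 transcripts were 94.4% identical over 606 aligned bases. No run of 100 bases was the same in both, and 13.2% of the runs of 50 bases in Saa1 also occurred in Saa2. Neither the read length nor the treatment of reads with several matches is given in the labels. The split of reads between Saa1 and Saa2 is therefore uncertain, and their sum is given below as well. Saa3 and Saa4 transcripts were 76.3 to 79.4% identical to the others.

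All 4 genes were expressed without TNF, at very different levels. Levels are in CPM, reads scaled to a common library size, as mean ± SD of 3 libraries. They were divided by the length taken for the transcript of each accession, 609 bases for Saa1, 606 for Saa2, 555 for Saa3 and 2094 for Saa4. Per kilobase, Control levels were 1071 ± 320 for Saa1, 841 ± 312 for Saa2, 209 ± 117 for Saa3 and 14.1 ± 3.37 for Saa4. With TNF the same quantity was 1017 ± 293, 801 ± 273, 209.9 ± 105 and 14.1 ± 2.00, in the same order. Reads were counted over introns as well, so these values depend on the length used, most of all for Saa4. Per kilobase of the counted span, Control means were 263, 205, 31.5 and 6.49 in the same order. Within each of the 6 libraries Saa1 was higher than Saa2, by 1.17 to 1.42 times in reads, while Saa1 and Saa2 values overlapped between libraries. The difference was not tested, and the split of reads between these genes is uncertain. Saa3 lay below Saa2 and Saa4 below Saa3 with no overlap between libraries. Ranked over all genes by mean Control CPM, Saa1 stood at place 146 and Saa2 at place 220.

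TNF left every member close to its Control level. Saa1 was at 446, 679 and 832 CPM in Control 1, 2 and 3 and at 445, 612 and 802 CPM in TNF 1, 2 and 3. The groups overlapped, and Saa1 was lower with TNF in each of the 3 same-numbered pairs, by log2 differences of -0.003, -0.149 and -0.055. Means were 652 ± 195 and 620 ± 178 CPM, a log2 difference of -0.07 for TNF minus Control (SE 0.27 unpaired, 0.035 blocked).
Here "unpaired" is the limma fit with group alone, "blocked" the fit with the replicate number as an added term, and log2 differences are on the log2(CPM + 1) scale. Limma's adjusted p for Saa1 was 0.999 unpaired and 0.192 blocked.

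Saa2 was at 336, 481 and 711 CPM in Control 1, 2 and 3 and at 354, 431 and 671 CPM in TNF 1, 2 and 3. It was higher with TNF in the first pair and lower in the other 2, with overlapping groups. The log2 difference was -0.06 (SE 0.31 unpaired, 0.04 blocked), with a limma adjusted p of 0.999 unpaired and 0.373 blocked. Without the replicate 1 libraries the blocked fit put Saa2 past 0.05, at a log2 of -0.12 and a limma adjusted p of 0.0410.

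Saa3 was at 50.4, 117 and 180 CPM in Control 1, 2 and 3 and at 56.5, 120 and 173 CPM in TNF 1, 2 and 3. Replicate 3 was high and replicate 1 low in both groups, and TNF and Control libraries of 1 number lay close together. The log2 difference was 0.05 (SE 0.53 unpaired, 0.04 blocked), with a limma adjusted p of 0.999 unpaired and 0.524 blocked. It was -0.01 in the blocked fit without replicate 1.

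Saa4 was at 28.4, 23.0 and 37.0 CPM in Control 1, 2 and 3 and at 30.0, 25.2 and 33.5 CPM in TNF 1, 2 and 3. The TNF values lay within the Control range. Its log2 difference was 0.02 (SE 0.18 unpaired, 0.07 blocked), with a limma adjusted p of 0.999 unpaired and 0.878 blocked. In the blocked fit it was -0.01 without replicate 1 and -0.03 without replicate 2.

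**Figure D1:**
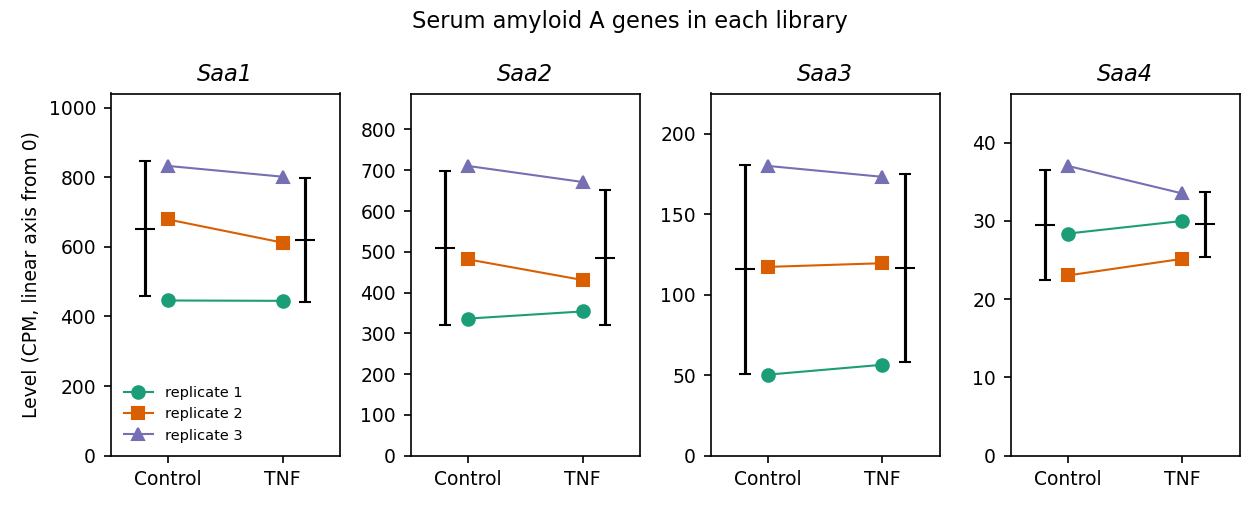
Level of each serum amyloid A gene (CPM, linear axis from 0, a separate scale per gene) in the 3 Control and 3 TNF libraries; lines join libraries with the same replicate number, and black bars are the group mean ± SD. Lines are nearly flat, and the replicate numbers stand apart: Saa3 runs from 50.4 to 180 CPM across Control libraries and from 56.5 to 173 CPM across TNF libraries.

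By limma's adjusted p at 0.05, 0 of 4 members passed in the unpaired fit and 0 of 4 in the blocked fit. Over all 12293 genes tested the shares called were 0.431% unpaired (0.358% higher with TNF and 0.0732% lower) and 20.6% blocked (9.4% higher and 11.2% lower). At an unadjusted p under 0.05 the count was also 0 in both fits, and limma-voom called 0 with and without the block. A missed threshold does not show that a level stayed the same, so the intervals matter. For Saa1 the 95% interval of the TNF to Control ratio ran from 0.610 to 1.49 unpaired and from 0.906 to 1.00 blocked. For Saa2 it ran from 0.580 to 1.60 and from 0.906 to 1.02. Saa3 had the widest unpaired interval of the family, 0.438 to 2.43, and a blocked one of 0.967 to 1.10. For Saa4 the bounds were 0.756 to 1.36 and 0.919 to 1.12. In the unpaired fit the sign of each member's difference reversed when 1 or another library was left out. Blocked intervals lean on a variance shared across genes. The members' own log2 differences in the 3 pairs had an SD of 0.07 for Saa1, 0.12 for Saa2, 0.11 for Saa3 and 0.14 for Saa4.

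In the authors' deposited table the log2 fold changes were -0.07 for Saa1, -0.06 for Saa2, 0.03 for Saa3 and 0.01 for Saa4. The adjusted p-values in the authors' deposited table were 0.330, 0.604, 0.853 and 1.00.

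Summed on the linear scale, the family gave 861, 1301 and 1760 CPM in Control 1, 2 and 3 and 885, 1188 and 1680 CPM in TNF 1, 2 and 3. Replicate 3 libraries had the highest sum and replicate 1 libraries the lowest in both groups. The means were 1307 ± 450 and 1251 ± 401 CPM, a log2 ratio of -0.06. By pair the TNF sum was 1.03, 0.913 and 0.954 times the Control sum. The 4 genes together took 0.0885 to 0.177% of a library's reads.

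The makeup of the sum was similar with and without TNF. Saa1 gave 50.4 ± 2.72% of it in Control and 49.8 ± 1.94% with TNF, and Saa2 gave 38.8 ± 1.69% and 38.7 ± 2.13%. Saa3 gave 8.37 ± 2.26% and 8.93 ± 2.20%, and Saa4 2.39 ± 0.803% and 2.50 ± 0.772%. Of the reads counted for Saa1 and Saa2 together, Saa1 held 56.5 ± 2.32% in Control and 56.3 ± 2.19% with TNF. That share differed by -0.216 percentage points, less than the spread between libraries. Saa3 gave 5.85% of the sum in Control 1 and 6.39% in TNF 1, against 9.02 to 10.3% in the other 4 libraries.

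**Figure D2:**
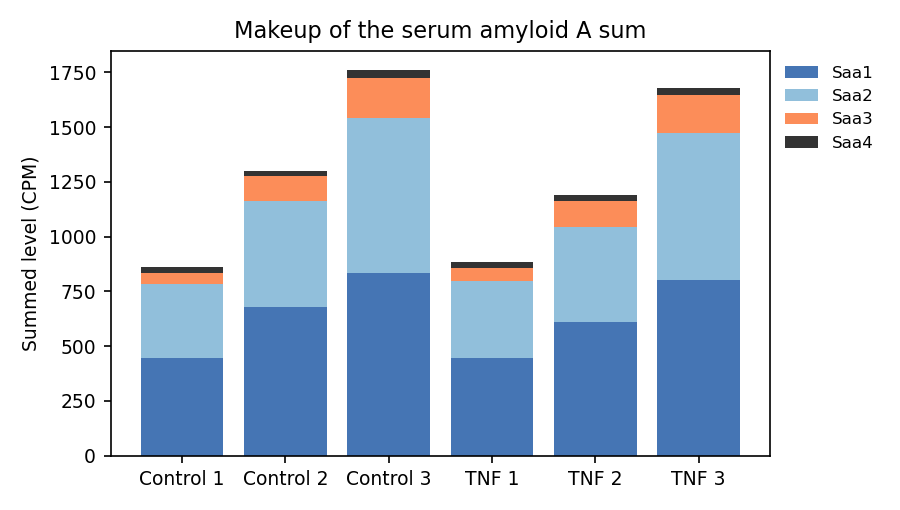
Summed level of the 4 serum amyloid A genes (CPM, bars from 0) in each library, with each gene's part in colour. The sum lies between 861 and 1760 CPM, Control and TNF bars of the same replicate number are alike in height, and Saa1 and Saa2 make up most of every bar.

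Far more of the family's variation followed the replicate number than TNF. Averaged over the Control and TNF library of each number, levels spanned a log2 range of 0.87 for Saa1, 1.00 for Saa2, 1.71 for Saa3 and 0.53 for Saa4. The median range over all tested genes was 0.25, and 5.29% of tested genes had a range at least as wide as that of Saa1, 3.55% as Saa2, 0.382% as Saa3 and 16.8% as Saa4. In the blocked limma fit the replicate term had an adjusted p of 8.86e-09 for Saa1, 9.55e-09 for Saa2, 1.61e-10 for Saa3 and 0.000392 for Saa4. This term was past the threshold in 53.5% of all tested genes, so passing it is common in these libraries. Saa4 had its lowest values in the replicate 2 libraries, unlike the other members, whose lowest values were in the replicate 1 libraries.

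The labels do not say what a replicate number marks. Several cell markers moved with it. The summed level of 16 macrophage markers was 157 to 174 CPM in Control 1 and 2 and 162 to 169 CPM in TNF 1 and 2, against 242 CPM in Control 3 and 245 CPM in TNF 3. Most of that sum was Cd68. Of the 16, only Cd68 and Mpeg1 had enough reads to be tested, and Cd68, a lysosomal protein, is not confined to macrophages. The sum of 10 endothelial markers was 92.4 and 107 CPM in Control 1 and 2 and 172 CPM in Control 3. With TNF it was 91.7, 104 and 167 CPM. The sum of 10 hepatocyte markers was 34578 and 32749 CPM in the replicate 1 libraries and 47306 to 53307 CPM in the others. Not every marker followed this sum, in which abundant transcripts weigh most. Hnf4a was highest in the replicate 1 library of each group. It was at 623, 558 and 515 CPM in Control 1, 2 and 3 and at 459, 402 and 393 CPM in TNF 1, 2 and 3. The sum of stellate cell markers was 19.8, 70.3 and 63.4 CPM in Control 1, 2 and 3 and 21.0, 47.8 and 40.0 CPM in TNF 1, 2 and 3, lowest in the replicate 1 libraries, and most of it was Reln. The sum of 8 cholangiocyte markers was 62.3, 52.5 and 61.2 CPM in Control 1, 2 and 3 and 66.7, 55.7 and 75.7 CPM in TNF 1, 2 and 3. It was lowest in the replicate 2 libraries. Neutrophil markers (6 genes) summed to at most 0.0973 CPM and lymphocyte markers to at most 0.773 CPM. The part of these cell types in the replicate pattern was not tested. Between Control and TNF the macrophage sum was 191 ± 44.6 and 192 ± 46.4 CPM and the endothelial sum 124 ± 42.4 and 121 ± 40.6 CPM. Over all tested genes the blocked fit called 9.4% higher and 11.2% lower, to be set beside the marker counts that follow. Of 9 tested endothelial markers 1 was higher and 1 lower in the blocked fit. The cholangiocyte sum was 58.7 ± 5.38 and 66.1 ± 10.0 CPM, with 1 of 5 tested markers higher and 1 lower in the blocked fit. The stellate sum was 51.2 ± 27.4 and 36.2 ± 13.8 CPM, with 1 of 5 tested markers lower in the blocked fit. The hepatocyte sum was 46637 ± 10463 and 42756 ± 8678 CPM, with 4 of 10 markers lower and 0 higher in the blocked limma fit (limma-voom with the block called 5 lower and 0 higher). Apoa1 and Hnf4a are among these 10 markers and are counted again in lists below. Whether these marker levels bear on the Saa values was not tested. In bulk samples fewer cells of a type and less RNA per cell cannot be told apart.

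Genes most like each member were found by the root mean square difference of log2(CPM + 1) over the 6 libraries, each gene centred on its own mean. Among the 5 closest to Saa1 were the mitochondrial enzyme gene Shmt2 (0.0379) and Afm (0.0388), which encodes the plasma protein afamin; the median over tested genes was 0.390. Closest to Saa3 were Pdk1 (0.0808), a pyruvate dehydrogenase kinase, and Upp1 (0.09), a uridine phosphorylase, with a median of 0.727. Saa1 and Saa2 differed by 0.108, and 12 other genes were closer to Saa2 than Saa1 was. One of them was Ldha (0.0777), a lactate dehydrogenase gene of the same chromosomal region. Saa3 differed from Saa1 by 0.359 and from Saa4 by 0.673. On log2(CPM + 0.1), 3 of the 5 closest genes of Saa1, 2 of Saa2, 3 of Saa3 and 1 of Saa4 were the same.

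Some receptor and adaptor genes of the inducing cytokines passed the blocked test, in both directions, and most did not pass. A gene is said to have risen or fallen where the blocked fit gave limma adjusted p below 0.05, as it did for 9.4% (higher) and 11.2% (lower) of tested genes. Of 17 tested receptor and adaptor genes 5 rose, 2 fell and 10 did not pass, with a median log2 of 0.05 against -0.01 over all tested genes. The unpaired fit called 0. Osmr, the oncostatin M receptor, rose from 7.42 ± 2.82 to 15.4 ± 1.76 CPM (log2 1.02). The adaptor gene Myd88 of Toll-like and interleukin-1 receptors rose by 0.37 and the kinase gene Tyk2 by 0.30. Il6ra, the interleukin-6 receptor, fell from 48.3 ± 2.26 to 39.95 ± 1.90 CPM (log2 -0.27). The TNF receptor gene Tnfrsf1a was at 88.3 ± 2.74 and 86.7 ± 7.21 CPM, with a limma adjusted p of 0.998 unpaired and 0.707 blocked.

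NF-κB subunit genes rose. The listed C/EBP genes and Stat3, the only STAT gene listed, did not rise, and Cebpd fell. Of 17 tested transcription factors and cofactors 7 rose, 2 fell and 8 did not pass, with a median log2 of 0.05. In the unpaired fit 3 were higher. Nfkb2 rose from 60.0 ± 8.60 to 154 ± 12.7 CPM (log2 1.36), Relb from 18.7 ± 0.717 to 50.9 ± 6.45 CPM (log2 1.39) and Nfkb1 from 59.7 ± 1.53 to 96.7 ± 5.87 CPM (log2 0.69). Rela, the main activating subunit, rose by 0.24. Cebpa was at 170 ± 41.7 and 173 ± 30.4 CPM (blocked limma adjusted p 0.555). Cebpb was at 207 ± 22.0 and 201 ± 27.4 CPM (blocked limma adjusted p 0.527). Cebpd fell from 10.8 ± 3.02 to 7.26 ± 0.944 CPM (log2 -0.49), with a limma adjusted p of 0.0620 without replicate 2. Stat3 was at 135 ± 6.61 and 125.5 ± 3.58 CPM (blocked limma adjusted p 0.0971), and passed at 0.0164 without replicate 1. The glucocorticoid receptor gene Nr3c1 was at 104 ± 13.6 and 99.1 ± 14.1 CPM and did not pass in either limma fit. Hnf4a, a factor of hepatocyte identity, fell by 0.43 on the log2 scale.

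Of 12 tested feedback inhibitors of cytokine signalling 7 rose, 2 fell and 3 did not pass, with a median log2 of 0.53; 3 were higher in the unpaired fit and 0 when any 1 library was left out of it, 0 with no filter on low values and 1 with limma-voom. The number lower was 1 in the blocked fit whichever replicate number was left out. Tnfaip3, which encodes A20, rose from 15.7 ± 4.71 to 54.8 ± 16.3 CPM (log2 1.74). Nfkbia, which encodes IκBα, rose from 16.2 ± 1.97 to 32.0 ± 5.83 CPM (log2 0.93). Nfkbib rose by 0.66 and Tnip1, a partner of A20, by 0.50.

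Other acute phase genes split. Of 27 tested, 10 rose, 5 fell and 12 did not pass in the blocked fit, with a median log2 of 0.01, and the unpaired fit called 0. Without replicate 1, 7 were higher and 6 lower. Haptoglobin (Hp) was at 1612, 1887 and 1962 CPM in Control 1, 2 and 3 and at 2775, 3548 and 2992 CPM in TNF 1, 2 and 3, with no overlap. Its log2 difference was 0.77, with a limma adjusted p of 0.111 unpaired and 9.91e-08 blocked. Apcs, which encodes serum amyloid P, a pentraxin unrelated to serum amyloid A, rose from 69.0 ± 9.34 to 116 ± 9.13 CPM (log2 0.75). Cd14 and Lbp, whose products bind bacterial lipopolysaccharide, rose by 0.76 and 0.42. The genes that fell were the fibrinogen chain genes Fga (log2 -0.22) and Fgb (-0.21), the protease inhibitor genes Serpina3m (-0.19) and Serpina3n (-0.16), and Itih3 (-0.16). With no filter on low values Fga did not pass (blocked limma adjusted p 0.0647). Other classical acute phase genes lay as close to 0 as the Saa genes. Orm1, which encodes an orosomucoid, was at 578 ± 43.2 and 571 ± 26.8 CPM (log2 -0.02), and Lcn2, which encodes lipocalin 2, at 1177 ± 179 and 1178 ± 173 CPM (log2 0.002); neither passed in either limma fit. These examples were chosen after their values were seen. The blocked 95% intervals were 0.66 to 0.87 for Hp and -0.14 to 0.01 for Saa1 on the log2 scale. The difference between genes in their change was not tested.

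**Figure D3:**
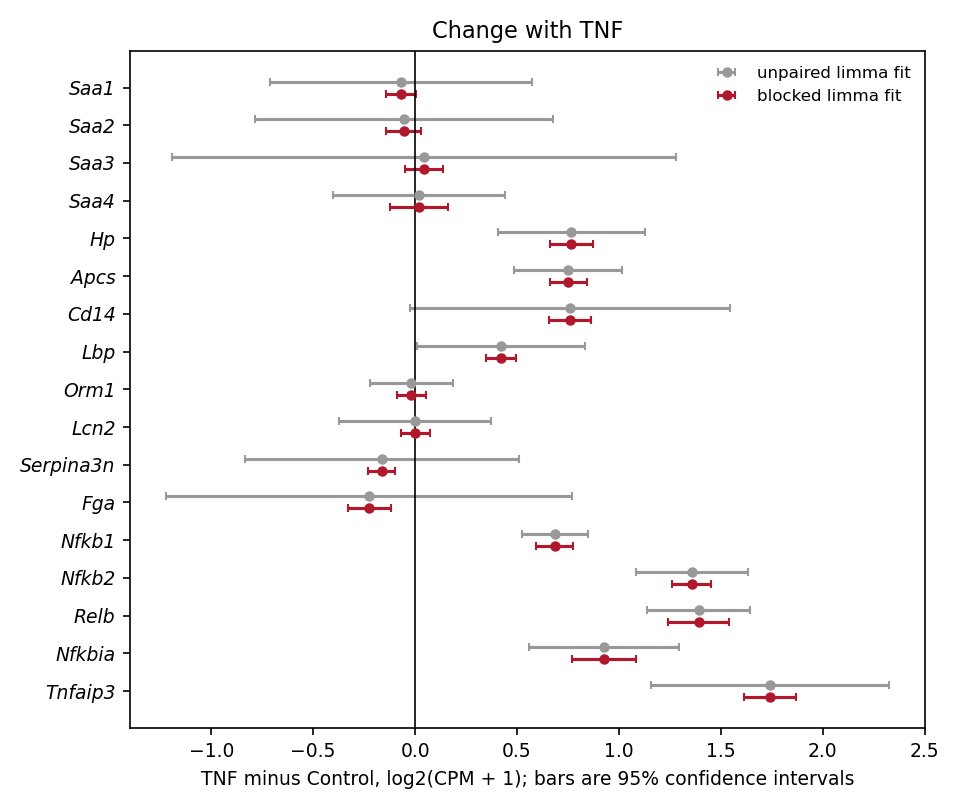
TNF minus Control on the log2(CPM + 1) scale with 95% confidence intervals, for the 4 serum amyloid A genes, 8 other acute phase genes and 5 NF-κB pathway genes, from the unpaired (grey) and blocked (red) limma fits. Blocked intervals of the 4 Saa genes include 0, with estimates from -0.07 to 0.05, as do those of Orm1 and Lcn2. Blocked intervals of Serpina3n and Fga lie below 0 and those of the other 9 genes above it.

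Genes of HDL apolipoproteins and HDL remodelling were lower where they passed in the blocked fit. HDL is the particle that carries serum amyloid A. Of 14 tested 5 fell, 0 rose and 9 did not pass in the blocked limma fit, with a median log2 of -0.09. Over all tested genes that fit called 11.2% lower and 9.4% higher. The unpaired fit called 0. Against the count of 0 higher, limma-voom with the block also called 0. Without replicate 1 the blocked fit called 1 higher. Apoa1, the main HDL apolipoprotein, fell from 2401 ± 165 to 2009 ± 108 CPM (log2 -0.26). Apoc3 fell by 0.24 and the cholesterol exporter Abca1 by 0.22. Among negative acute phase genes, whose plasma proteins drop in inflammation, 5 of 10 fell and 0 rose in the blocked limma fit. Limma-voom with the block called 6 lower and 1 higher. Without replicate 2, 3 were lower. Apoa1 and Apoa2 are on both this list and the HDL list, so the fall of Apoa1 is counted in both. Ahsg, which encodes fetuin-A, fell by 0.60 and Rbp4, the retinol carrier, by 0.22.

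Of 8 genes for reported serum amyloid A receptors 5 were tested. Tlr2 rose from 10.5 ± 1.90 to 39.4 ± 4.20 CPM (log2 1.82), with a limma adjusted p of 0.00758 unpaired and 3.45e-09 blocked. The HDL receptor gene Scarb1 was at 78.7 ± 0.883 and 76.5 ± 1.20 CPM (blocked limma adjusted p 0.529).

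Around the cluster, 10 other genes of the table lay within 250 kb of the outermost member, and 8 were tested. In the blocked fit 2 rose and 0 fell, and the unpaired fit called 0. The 2 were Spty2d1 (54.5 and 64.3 CPM in Control and TNF, log2 0.24) and Gtf2h1, a subunit of the transcription factor TFIIH (153 and 169 CPM, log2 0.15). Their median log2 over the 8 was 0.02.

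**Figure D4:**
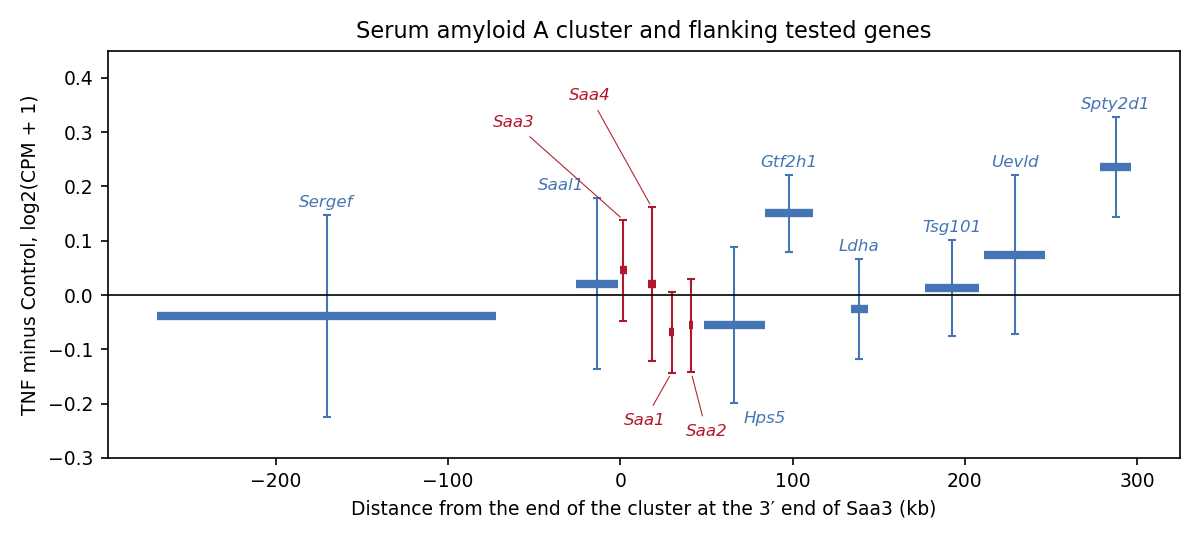
TNF minus Control on the log2(CPM + 1) scale for the Saa genes (red) and the 8 tested flanking genes (blue) against distance along the chromosome in kb; thick bars show the extent of each gene and thin bars the 95% interval of the blocked limma fit. The Saa genes lie near 0, and Spty2d1 (0.24) and Gtf2h1 (0.15) have intervals above 0.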

How the data were processed

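Per the submitters' processing notes, reads were aligned with STAR 2.6.1a to mm10. The sources used here name no counting program, annotation or strand setting. The deposited table held log2 CPM per library, to which the authors had added a prior count. Per gene, the authors also deposited their log2 fold change, the score of a likelihood ratio test and its p-value, raw and adjusted, without naming the model.

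The shared floor of the log2 values was subtracted on the linear scale to give CPM. Divided by the worth of 1 read in each library, 100% of values came out whole to within 0.0001 reads, so read counts were recovered. Libraries held 17612060 to 25114289 reads, and a count of 0 allows up to 3 reads (0.124 to 0.166 CPM), for counting error only. The members had 3608 (Saa4) to 78553 (Saa1) reads over the 6 libraries.

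Limma 3.58.1 in R 4.3.3 was fitted to log2(CPM + 1) with group alone as term and a prior variance that follows the mean level. Tests were two-sided, with Benjamini-Hochberg adjustment at 0.05. At least 10 reads (at the median library's depth) in 3 libraries and 15 in total were required, which left 12293 genes. This scale understates changes of low genes. Deviations from the group means correlated at 0.784, 0.789 and 0.793 between same-numbered Control and TNF libraries. Libraries were therefore matched by the number in their titles, and blocked values are given beside the unpaired ones. What the number marks is not stated, so the matching rests on these correlations. Libraries differed beyond sampling noise (chi-square divided by its degrees of freedom, 14.9 to 70.8). Sums and shares over the family carry no p. Alternatives were other pseudocounts, filters and scalings, limma-voom on the recovered reads and leaving out replicates. Fits were tested on simulated data. The members and gene lists were chosen with earlier results of these data known. Lists share some genes, such as Apoa1, Alb, Ttr, Hnf4a and Scarb1, so counts from different lists are not independent. Named from each list were at most 4 genes with the lowest blocked p, plus receptors and factors that act on Saa genes. From the acute phase list the genes that fell were named as well. Orm1 and Lcn2 were added after their values were seen. Cd68, Mpeg1 and Reln were named from the marker lists. Flanking genes within 250 kb and the 5 genes most like each member were eligible too, and those printed were picked from them after their values were seen; 1 gene is not reported here. The test of the replicate term was added after seeing the data. Upstream sequences are from RefSeq (GRCm38.p6, 4 of 4 members matched) and transcripts from GENCODE mouse release M21; they were aligned with Biopython 1.88.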

Additional observations from a re-analysis of the deposited data

How the results depend on the processing

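The unpaired fit called 53 genes. The count was 2530 with the replicate block alone, and with the block it was 2497 with a pseudocount of 0.1, 2496 with the deposited log2 values, 2516 with a filter at 1 CPM, 2491 with library totals, 2572 with median-of-ratios scaling, 2520 with limma-voom and 1743 with no filter. Without a filter the unpaired fit called 31. Leaving out a library gave 9 to 30 unpaired and leaving out a replicate number 1792 (replicate 2), 2158 (replicate 3) and 2309 (replicate 1) blocked, with fewer samples. No Saa gene passed under any unpaired alternative run. With the block none passed except Saa2 without replicate 1 (log2 -0.121, limma adjusted p 0.0410); at an unadjusted p under 0.05 that fit had 2 of the 4. Over all fits that left out a library or a number, log2 ranged from -0.320 to 0.149 for Saa1, -0.322 to 0.217 for Saa2, -0.458 to 0.490 for Saa3 and -0.139 to 0.192 for Saa4, so signs changed. The blocked fits without replicate 1 gave -0.0137 for Saa3 and -0.00904 for Saa4, and that without replicate 2 gave -0.0315 for Saa4. The family sum ranged from a log2 of -0.335 to 0.211, and the Saa1 share difference from -1.49 to 0.791 percentage points. Ranges were -0.154 to 0.0345 for Cebpb (0.0262 without Control replicate 2 and 0.0250 without TNF replicate 1), -0.180 to 0.0369 for Nr3c1 and -0.0949 to 0.0176 for Tnfrsf1a (0.00943 blocked without replicate 1). They were -0.0757 to 0.0318 for Orm1 (0.00266 without TNF replicate 1, 0.000533 without TNF replicate 3 and 0.00915 blocked without replicate 3) and -0.128 to 0.123 for Lcn2 (-0.0894 and -0.0287 without TNF replicates 2 and 3, and -0.00729 and -0.00394 blocked without replicates 1 and 2). For Fga they were -0.565 to 0.192 (0.0737 without Control replicate 3) and for Serpina3n -0.424 to 0.101 (0.00357 without TNF replicate 2). The cause was not tested. The family sum under other scalings was -0.0544, and -0.0527 as the mean of pairs. The replicate term stayed past 0.05 for all 4 Saa genes under each alternative of the blocked fit. Saa4, the member with the fewest reads, had at least 469 reads in each library.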
